A study of Xenopus laevis with 15 samples.

Results

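In Xenopus laevis embryos exposed to NRX204647, an agonist of retinoic acid receptors, 78 gene models without a gene symbol had more RNA at 10 nM than in vehicle and more again at 1 µM. They were chosen by a rule on the measured values, out of 12791 expressed gene models without a symbol and 45099 gene models in the deposited table. The rule required a mean of at least 1 FPKM, fragments scaled for the length of the gene model and the size of the library, over 15 libraries. On the scale log2(group mean FPKM + 1), the step of 10 nM over vehicle and the step of 1 µM over 10 nM each had to be at least 0.6. All 5 libraries at 10 nM had to lie above all 5 vehicle libraries, and all 5 libraries at 1 µM above all 5 libraries at 10 nM. These conditions use every measured value, so the levels and steps of the 78 gene models are a description and carry no test. The rule was met by 0.610% of the expressed gene models without a symbol.

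Whole embryos from eggs fertilized in vitro were kept from stage 6-7 to stage 18 in dishes of dilute saline. The groups had 0.1% ethanol as vehicle, 10 nM NRX204647 or 1 µM NRX204647, with 5 libraries each. The 10 nM dose is described in the labels as selective for the gamma subtype of the retinoic acid receptor, and 1 µM as activating the alpha, beta and gamma subtypes alike. No genotype, strain or transgene is given, and the series' design text calls the replicates single-clutch. Each library came from 5 embryos pooled as 1 aliquot of a dish of 25, and no second dish per group is described. Dish and dose therefore cannot be told apart, and every spread given here is a spread between aliquots, which may be technical.

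Retinoic acid receptors are transcription factors that bind DNA as heterodimers with retinoid X receptors. Without ligand they can hold target genes repressed, and with ligand they recruit coactivators, so that transcription of direct target genes can increase when an agonist is added. In vertebrate embryos this pathway patterns the hindbrain, the trunk axis and the somites, and its own synthesis and breakdown enzymes respond to it. Xenopus laevis has an allotetraploid genome, in which many genes are kept as a pair of near-identical copies that can share short reads.

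No identity can be given to the 78 gene models. Their symbol cell was empty for 58 and held a dash for 20. The table gives symbols only up to line 4491 of its 45099 gene models, and 3 of the 78 stand among the 636 expressed gene models without a symbol in that stretch. For the others the missing symbol goes with their place in the table. None of the table's identifiers matched the RefSeq gene table used here (0 matched). They are named by the identifiers of the table, and no role or sequence is stated for them. Of the 78, 74 also had values that resolved into whole reads, which gives the number of reads behind a value.

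The libraries were not alike in depth. Depth relative to the deepest library, recovered from the steps of the FPKM values, was 0.312 to 0.833 in vehicle, 0.259 to 0.646 at 10 nM and 0.535 to 1 at 1 µM. In all, 5 libraries lay under 0.4 of the deepest, 3 of them vehicle and 2 of them 10 nM. A single gene model outside the 78, Xelaev18000045m.g, took 23.6 to 45.5% of all FPKM in vehicle, 17.6 to 32.9% at 10 nM and 14.5 to 26.2% at 1 µM, with its highest share in vehicle replicate 3. Its share moves with dose in the direction opposite to the 78 gene models, and its part in their differences was not tested. With FPKM rescaled to a common total without it, 42 of the 78 still met the rule, and with median-of-ratios scaling and quantile normalization 60 and 57 did. Under all 3 scalings 36 met it, and 14 met it under none of them. Without the 5 shallow libraries 59 of the 78 met it.

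Summed over the 78 gene models, the level was 454 to 536 FPKM in the vehicle libraries, 964 to 1138 FPKM at 10 nM and 2345 to 3068 FPKM at 1 µM. As a share of all FPKM this was 0.271 to 0.358% in vehicle, 0.554 to 0.721% at 10 nM and 1.48 to 1.95% at 1 µM. With the most abundant gene model left out of the total, the shares were 0.439 to 0.498%, 0.825 to 0.895% and 2.01 to 2.28% in the same order of dose. The rule puts the 3 groups in order without overlap for each of the 78, so their sums cannot overlap. Nothing is read from the order of the sums or shares. The gene models did not contribute evenly. The most abundant of them, Xelaev18006951m.g, held 18.7% of the summed level in vehicle, 16.4% at 10 nM and 29.7% at 1 µM.

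**Figure D1:**
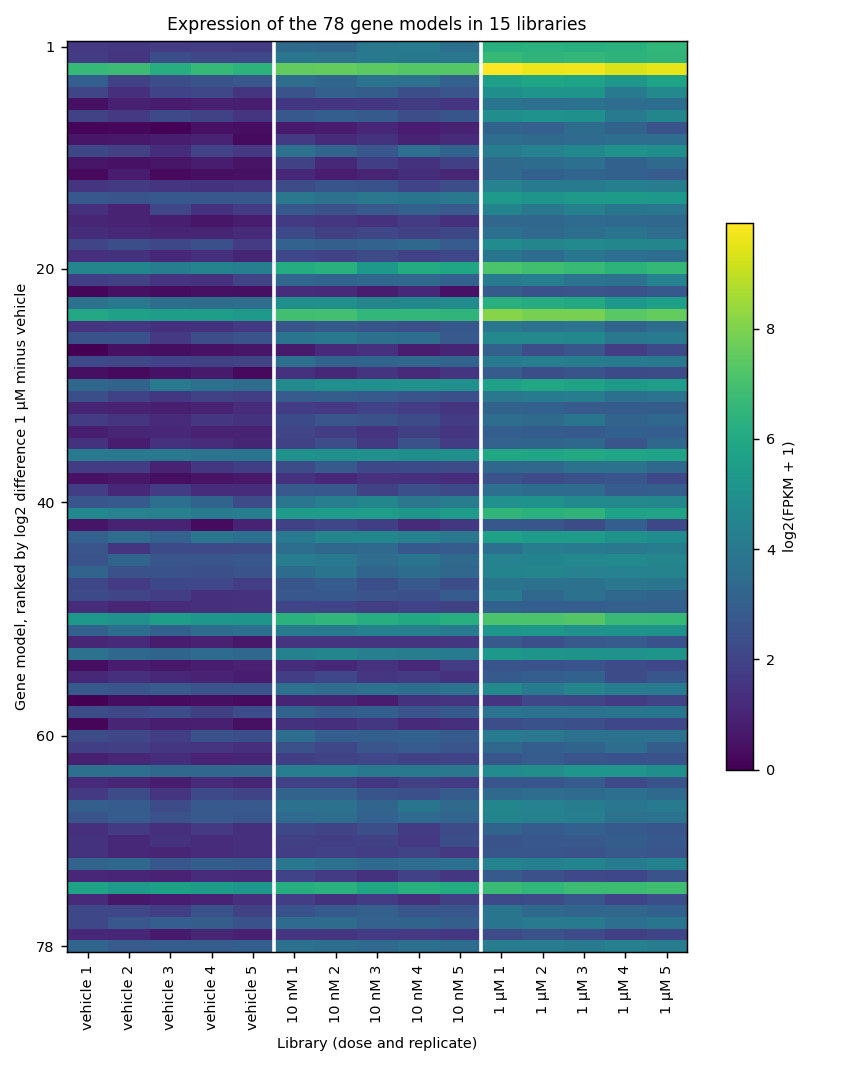
Expression of the 78 gene models (rows, ranked by the log2 difference of 1 µM minus vehicle, largest on top) in the 15 libraries (columns, from vehicle through 10 nM to 1 µM), as log2(FPKM + 1). Every row becomes lighter at each white line, as the choice of the rows requires, while levels differ between rows from under 1 FPKM to 964 FPKM in a library.

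The median level over the 78 gene models was 2.47 FPKM in vehicle, 5.52 FPKM at 10 nM and 12.9 FPKM at 1 µM. Over all 13192 expressed gene models, the ones that reach that minimum, it was 2.72, 2.72 and 3.00 FPKM in the same order. The vehicle level enters the rule, and 16 of the 78 had a vehicle mean under 1 FPKM. They reached the minimum only through the dosed libraries, so nothing is read from how near the vehicle medians are. The median first step, 10 nM minus vehicle, was 0.84 and ranged from 0.60 to 2.00, against a median of 0.00 for all expressed gene models. The median second step, 1 µM minus 10 nM, was 0.95 and ranged from 0.61 to 2.63, against a median of 0.07. The full difference of 1 µM minus vehicle had a median of 1.85 and a range from 1.21 to 4.63, against 0.08 for all. In FPKM, the ratio of 1 µM to vehicle had a median of 5.09 and ran from 2.51 to 36.7. It was at least 10 for 14 gene models and under 4 for 28. Most of the 14 had a vehicle mean under 1 FPKM, where few reads can make the size of a ratio uncertain.

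As background to these values, limma (adjusted p under 0.05) called 13.0% of all expressed gene models higher at 10 nM than in vehicle. It called 28.9% higher for 1 µM against vehicle and 16.1% higher for 1 µM against 10 nM. All 78 gene models were among the calls in each comparison, which the choice of them on the same values fixes, so nothing is read from it. The balance of calls over all gene models depends on the scaling. Of the calls of 10 nM against vehicle 55.8% were higher, and 54.9%, 46.6% and 27.7% with median-of-ratios scaling, quantile normalization and the common total. For 1 µM against vehicle the shares were 63.5% as deposited and 51.8%, 46.1% and 39.0% under those scalings. For 1 µM against 10 nM they were 67.5% as deposited and 50.1%, 48.3% and 55.1%. Without vehicle replicate 3, 1484 gene models were higher and 1613 lower at 10 nM against vehicle, where 1716 were higher and 1358 lower with it.

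Among expressed gene models without a symbol, 1011 had a first step of at least 0.6 and 1044 a second step of that size, and 158 had both. The condition that libraries must not overlap removed a further 80. The mirror of the rule, with both steps downward, was met by 18 gene models in the values as deposited. The balance of higher and lower calls depends on the scaling, so nothing is read from the 18 beside the 78. Without any condition on size, 207 gene models had their 3 groups in order without overlap. Of the 207, 62 missed only the first step, 11 missed only the second, and 56 missed both. In the plot of both steps, the chosen gene models fill the corner next to the thresholds, and a pair of them stands apart at a large value of both.

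**Figure D2:**
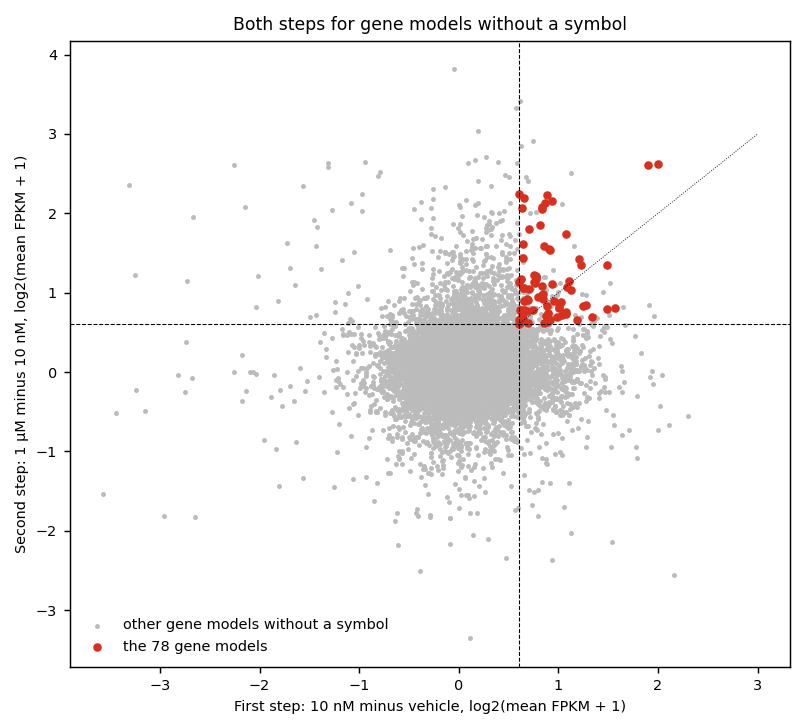
First step (10 nM minus vehicle, horizontal axis) against second step (1 µM minus 10 nM, vertical axis), both as differences of log2(mean FPKM + 1), for the 12791 expressed gene models without a symbol, with the 78 chosen ones in red. Dashed lines mark 0.6 and the dotted line marks equal steps; Xelaev18034594m.g and Xelaev18036884m.g lie alone at the upper right, with steps of 2.00 and 2.63 and of 1.90 and 2.61.

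The 2 gene models with the largest difference behaved alike. Xelaev18034594m.g had 2.15, 2.04, 2.41, 2.49 and 2.35 FPKM in vehicle, 9.84, 9.15, 14.6, 15.9 and 11.4 FPKM at 10 nM, and 73.2, 79.4, 75.6, 79.6 and 94.2 FPKM at 1 µM. The 1 µM libraries lay far above the rest, replicate 5 highest, and the vehicle libraries differed little among themselves. Its means were 2.29 ± 0.187 FPKM in vehicle, 12.2 ± 2.96 FPKM at 10 nM and 80.4 ± 8.15 FPKM at 1 µM (SD, n = 5 each), a 35.1-fold ratio of 1 µM to vehicle and a 5.32-fold ratio of 10 nM to vehicle. Xelaev18036884m.g had 2.38, 1.88, 4.15, 3.34 and 3.48 FPKM in vehicle, 13.7, 12.6, 14.96, 15.2 and 13.8 FPKM at 10 nM, and 99.95, 85.4, 94.6, 85.0 and 88.5 FPKM at 1 µM. Its lowest library at 1 µM lay 5.59-fold above its highest at 10 nM, and in Xelaev18034594m.g that gap was 4.61-fold. Its means were 3.05 ± 0.906 FPKM in vehicle, 14.1 ± 1.05 FPKM at 10 nM and 90.7 ± 6.45 FPKM at 1 µM (SD, n = 5 each), a 29.8-fold ratio of 1 µM to vehicle. In vehicle the 2 gene models rested on 29 to 91 and 27 to 133 reads per library, and at 1 µM on 1942 to 3736 and 2088 to 4538 reads.

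Xelaev18006951m.g was the most abundant of the 78 in every group. Its values were 98.3, 109, 71.3, 97.8 and 83.7 FPKM in vehicle, 183, 188, 168, 158 and 156 FPKM at 10 nM, and 964, 815, 832, 668 and 739 FPKM at 1 µM. Replicate 1 was highest and replicate 4 lowest at 1 µM, and the libraries at 10 nM lay close together. The means were 92.1 ± 14.8 FPKM in vehicle, 171 ± 14.6 FPKM at 10 nM and 804 ± 111 FPKM at 1 µM (SD, n = 5 each). Most of the difference fell between 10 nM and 1 µM: the ratio of 10 nM to vehicle was 1.85, and that of 1 µM to 10 nM was 4.71. No read number could be resolved for it.

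Xelaev18027098m.g had 6.73, 2.91, 4.11, 5.02 and 5.54 FPKM in vehicle, 10.7, 8.54, 12.7, 11.98 and 7.23 FPKM at 10 nM, and 47.3, 56.5, 53.0, 37.1 and 52.2 FPKM at 1 µM. At 1 µM replicate 4 was the lowest library, and at 10 nM the lowest library, replicate 5, lay only 1.07-fold above the highest vehicle library. The means were 4.86 ± 1.45 FPKM in vehicle, 10.2 ± 2.29 FPKM at 10 nM and 49.2 ± 7.53 FPKM at 1 µM (SD, n = 5 each), a 10.1-fold ratio of 1 µM to vehicle. Xelaev18022753m.g had 0.370, 0.883, 0.693, 0.837 and 0.758 FPKM in vehicle, 2.06, 1.93, 2.07, 2.35 and 1.85 FPKM at 10 nM, and 13.5, 11.2, 12.3, 11.1 and 11.1 FPKM at 1 µM. Its libraries lay close together at both doses, and vehicle replicate 1 was the lowest library of all. The means were 0.708 ± 0.203 FPKM in vehicle, 2.05 ± 0.191 FPKM at 10 nM and 11.9 ± 1.07 FPKM at 1 µM (SD, n = 5 each), a 16.7-fold ratio of 1 µM to vehicle.

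Xelaev18018671m.g had the largest ratio of 1 µM to vehicle among the 78, 36.7-fold, and the lowest vehicle level. It had 0.126, 0.144, 0.0602, 0.405 and 0.310 FPKM in vehicle, 0.659, 0.693, 1.13, 0.749 and 0.955 FPKM at 10 nM, and 8.10, 7.27, 10.2, 7.82 and 4.95 FPKM at 1 µM. The vehicle values rest on 2 to 29 reads per library, so the size of its ratio is uncertain, while the 1 µM values rest on 373 to 731 reads. The means were 0.209 ± 0.143 FPKM in vehicle, 0.838 ± 0.201 FPKM at 10 nM and 7.67 ± 1.90 FPKM at 1 µM (SD, n = 5 each). It was the only one of the 78 with a mean under 1 FPKM at 10 nM as well.

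**Figure D3:**
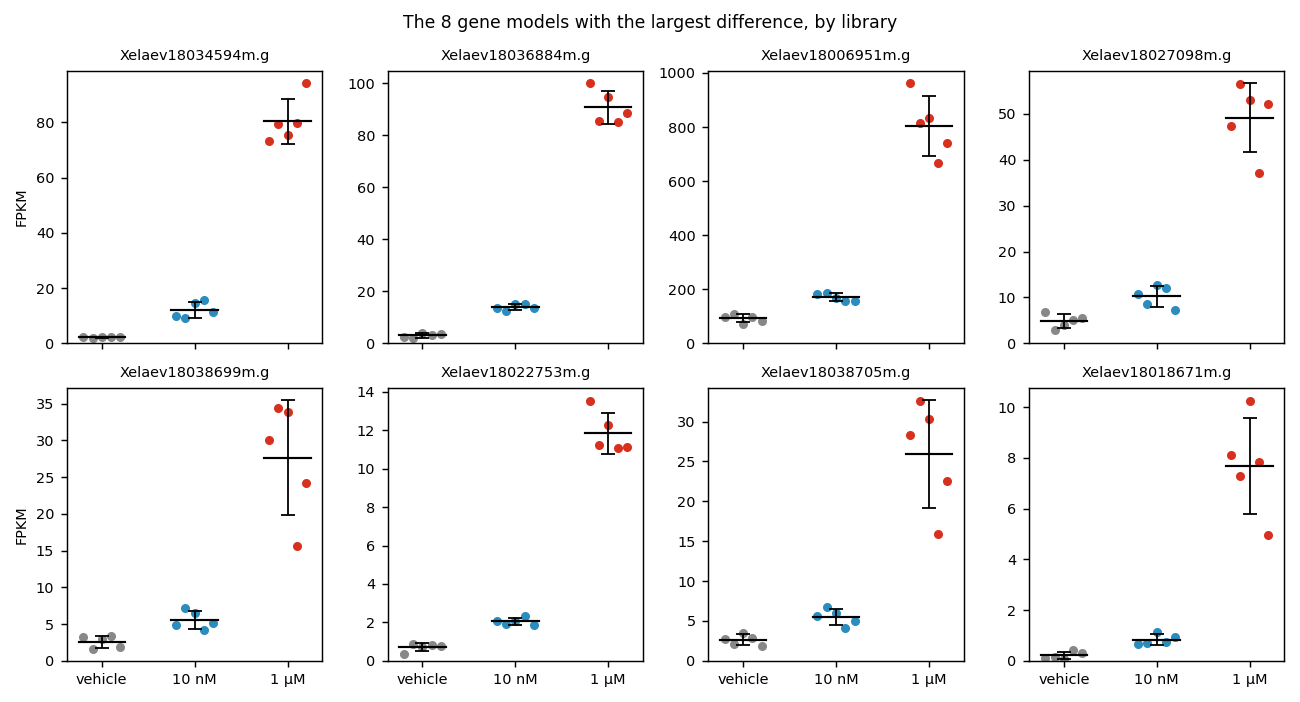
FPKM of the 8 gene models with the largest log2 difference of 1 µM minus vehicle, in each library (points, replicates 1 to 5 from left to right within a group), with the mean (line) and SD (bar) of 5 libraries, from vehicle through 10 nM to 1 µM. In all 8 the second step is the larger one, and for Xelaev18038699m.g and Xelaev18038705m.g replicate 4 is the lowest library at 1 µM.

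Xelaev18038699m.g and Xelaev18038705m.g, which complete the 8 largest differences, had nearly the same level in every library. Xelaev18038699m.g had 3.18, 1.61, 3.01, 3.33 and 1.83 FPKM in vehicle, 4.86, 7.15, 6.49, 4.20 and 5.09 FPKM at 10 nM, and 30.1, 34.4, 33.8, 15.7 and 24.2 FPKM at 1 µM. Xelaev18038705m.g had 2.76, 2.12, 3.54, 2.88 and 1.85 FPKM in vehicle, 5.62, 6.72, 6.02, 4.08 and 4.95 FPKM at 10 nM, and 28.3, 32.5, 30.3, 15.9 and 22.6 FPKM at 1 µM. In both, replicate 2 was highest and replicate 4 lowest at 1 µM, and at 10 nM replicate 2 was highest and replicate 4 lowest again. The ratio of Xelaev18038705m.g to Xelaev18038699m.g stayed between 0.864 and 1.31 over the 15 libraries. Their means were 2.59 ± 0.806 FPKM in vehicle, 5.56 ± 1.22 FPKM at 10 nM and 27.6 ± 7.82 FPKM at 1 µM (SD, n = 5 each) for Xelaev18038699m.g and 2.63 ± 0.668 FPKM in vehicle, 5.48 ± 1.01 FPKM at 10 nM and 25.9 ± 6.74 FPKM at 1 µM for Xelaev18038705m.g. Near-identical copies can share reads, so values of the 2 may not be separate measurements.

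The identifiers of these 2 gene models differ by 6, and the gene models numbered around them also had more RNA at 1 µM. This run was singled out after its values were seen and gets no test. Within 10 of either identifier the table holds 25 gene models, of which 15 were expressed at a mean of at least 1 FPKM. Of the 13 expressed ones other than the pair, 9 had all 1 µM libraries above all vehicle libraries. Among all expressed gene models 20.7% did. Some of the 9 count as expressed only through their 1 µM libraries. Xelaev18038703m.g averaged 0.363 FPKM in vehicle, 0.628 FPKM at 10 nM and 3.30 FPKM at 1 µM. Xelaev18038710m.g averaged 0.118, 0.473 and 2.45 FPKM in that order. The minimum thus favours gene models high at 1 µM, and nothing is read from the 9 beside the 20.7%. Xelaev18038704m.g had 0.409 ± 0.290 FPKM in vehicle, 1.37 ± 0.705 FPKM at 10 nM and 16.8 ± 3.06 FPKM at 1 µM (SD, n = 5 each). Xelaev18038698m.g had 2.38 ± 0.663 FPKM in vehicle, 4.79 ± 1.48 FPKM at 10 nM and 22.4 ± 5.99 FPKM at 1 µM. Xelaev18038711m.g had 3.42 ± 1.87 FPKM in vehicle, 6.24 ± 2.11 FPKM at 10 nM and 28.1 ± 7.82 FPKM at 1 µM. Xelaev18038702m.g had 1.58 ± 0.691 FPKM in vehicle, 2.22 ± 0.368 FPKM at 10 nM and 15.4 ± 2.85 FPKM at 1 µM. In each of these 4 the libraries at 10 nM overlapped vehicle, and in Xelaev18038702m.g the first step, 0.32, was also under 0.6. Only 2 of the 13 had 10 nM above vehicle without overlap. Beyond the run on its upper side Xelaev18038712m.g had 1.16 ± 0.159 FPKM in vehicle, 1.29 ± 0.298 FPKM at 10 nM and 1.25 ± 0.131 FPKM at 1 µM. On the lower side the edge was not clear. Xelaev18038690m.g had 0.812 ± 0.101 FPKM in vehicle, 0.760 ± 0.232 FPKM at 10 nM and 0.817 ± 0.204 FPKM at 1 µM, but the next one out, Xelaev18038689m.g, is among the 9 and had 11.1 ± 2.58 FPKM in vehicle, 26.2 ± 1.52 FPKM at 10 nM and 26.6 ± 6.17 FPKM at 1 µM. Between Xelaev18038690m.g and the run Xelaev18038692m.g was higher at 10 nM than at 1 µM in its mean, with 3.13 ± 4.30 FPKM in vehicle, 19.4 ± 9.28 FPKM at 10 nM and 12.9 ± 4.46 FPKM at 1 µM. The files do not say whether identifier numbers follow the genome.

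**Figure D4:**
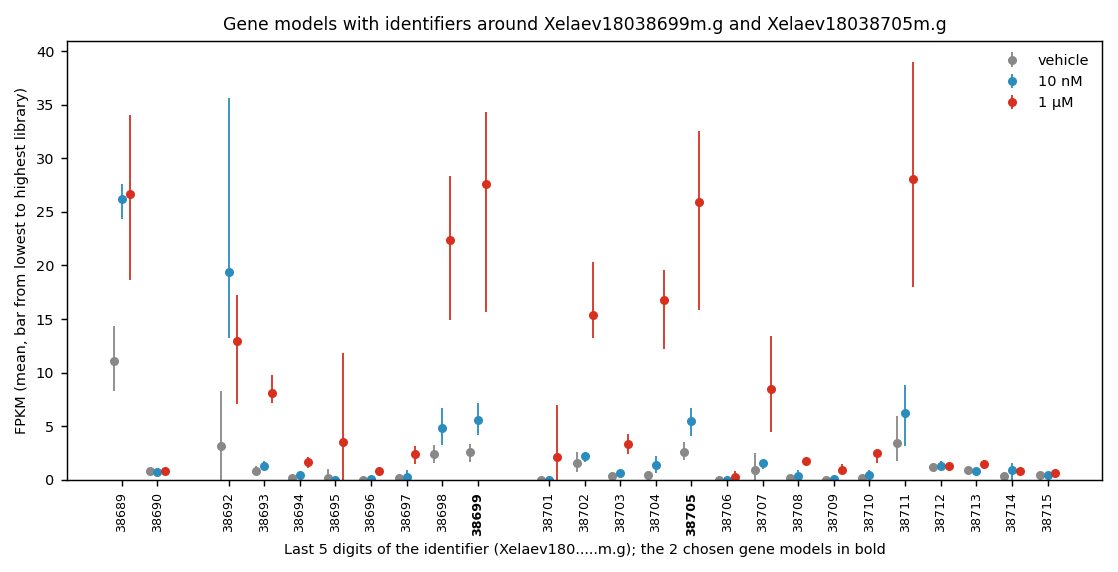
Mean FPKM (points) with the lowest and highest of 5 libraries (bars) in vehicle, at 10 nM and at 1 µM for the 25 gene models with identifiers within 10 of Xelaev18038699m.g or Xelaev18038705m.g, in order of identifier. Several gene models from Xelaev18038693m.g to Xelaev18038711m.g were at 8 to 28 FPKM at 1 µM and under 7 FPKM in the mean of the other groups, whereas the last 4, from Xelaev18038712m.g on, stayed under 2 FPKM in the mean of every group.

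Close identifiers recurred among the 78. There were 10 gene models (12.8%) with another of the 78 within 10 identifiers, and 456 of 12713 other expressed gene models without a symbol (3.59%) had one of the 78 that near. Over the 467 expressed neighbours within 10 of the 78, the median log2 difference of 1 µM minus vehicle was 0.18. A difference of at least 1 was found in 62 of them (13.3%), and 11 of the 62 are among the 13 expressed ones around the pair described above. Over all 13114 expressed gene models outside the 78 these were 0.08 and 6.56%. These are counts without a test. The minimum for expression favours gene models high at 1 µM here too, so nothing is read from these medians and shares. The other pairs were less uniform than Xelaev18038699m.g and Xelaev18038705m.g. Xelaev18031776m.g averaged 5.26 ± 1.51 FPKM in vehicle, 10.2 ± 1.81 FPKM at 10 nM and 20.8 ± 0.734 FPKM at 1 µM (SD, n = 5 each) and its neighbour Xelaev18031777m.g averaged 48.6 ± 8.199 FPKM in vehicle, 104 ± 16.4 FPKM at 10 nM and 220.4 ± 41.3 FPKM at 1 µM. The ratio of Xelaev18031777m.g to Xelaev18031776m.g ran from 7.78 to 12.7 over the libraries. Xelaev18034791m.g and Xelaev18034794m.g differed in shape: the ratio of Xelaev18034794m.g to Xelaev18034791m.g was 9.06 in vehicle, 5.95 at 10 nM and 2.07 at 1 µM. The remaining pairs were Xelaev18017636m.g with Xelaev18017637m.g and Xelaev18023028m.g with Xelaev18023030m.g, with ratios of the second to the first from 1.06 to 4.07 and from 1.04 to 2.61. Close levels did not need close identifiers. Xelaev18043406m.g and Xelaev18025121m.g had the most alike group means of all pairs, with a largest log2 difference of 0.04 over the 3 groups, and their identifiers lie 18285 apart.

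The highest mean levels after Xelaev18006951m.g belonged to 3 gene models. Xelaev18031777m.g had 61.7, 50.4, 46.0, 44.5 and 40.2 FPKM in vehicle, 120.5, 123, 93.7, 93.8 and 89.4 FPKM at 10 nM, and 272, 238, 233, 167 and 191 FPKM at 1 µM. It was higher at each dose in nearly equal steps of 1.08 and 1.07, with replicate 1 highest in vehicle and at 1 µM. Xelaev18029648m.g had 37.8, 31.0, 44.3, 36.3 and 33.9 FPKM in vehicle, 79.6, 91.9, 70.8, 63.2 and 75.1 FPKM at 10 nM, and 138, 138, 151, 104 and 98.6 FPKM at 1 µM. Xelaev18026129m.g had 50.8, 39.4, 47.1, 42.1 and 36.5 FPKM in vehicle, 71.8, 79.8, 55.4, 77.6 and 67.6 FPKM at 10 nM, and 108, 94.6, 111, 111 and 118 FPKM at 1 µM. In both, the first step was the larger one (1.03 against 0.72 and 0.69 against 0.62), and in Xelaev18029648m.g the lowest 1 µM library lay only 1.07-fold above the highest at 10 nM. For Xelaev18029648m.g and Xelaev18026129m.g no read number could be resolved. In all, 5 of the 78 had a mean of at least 100 FPKM at 1 µM, 49 of at least 10 FPKM at 1 µM and 10 of at least 10 FPKM in vehicle.

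The 2 doses divided the difference in different ways. The share of the log2 difference already reached at 10 nM had a median of 46.0% and ran from 21.2 to 66.1%. The second step was the larger one in 52 gene models and the first in 26. In 12 gene models the second step was at least 2 times the first, and in 0 the first was at least 2 times the second. Counted in FPKM rather than on the log2 scale, less than 50% of the increase was reached at 10 nM in all 78, with a median of 31.3% and a range from 8.42 to 49.2%. The rule limits this share, which cannot pass 50% where the second step is 1 or more, so nothing is read from it. The 26 gene models with the largest difference had a median share of 37.1%, the middle 26 had 45.9%, and the 26 with the smallest difference had 48.8%. Both steps must exceed 0.6, so a small difference allows little variation in this share. Both steps were at least 1 in 9 gene models, among them Xelaev18034594m.g, Xelaev18036884m.g, Xelaev18008363m.g and Xelaev18031777m.g.

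**Figure D5:**
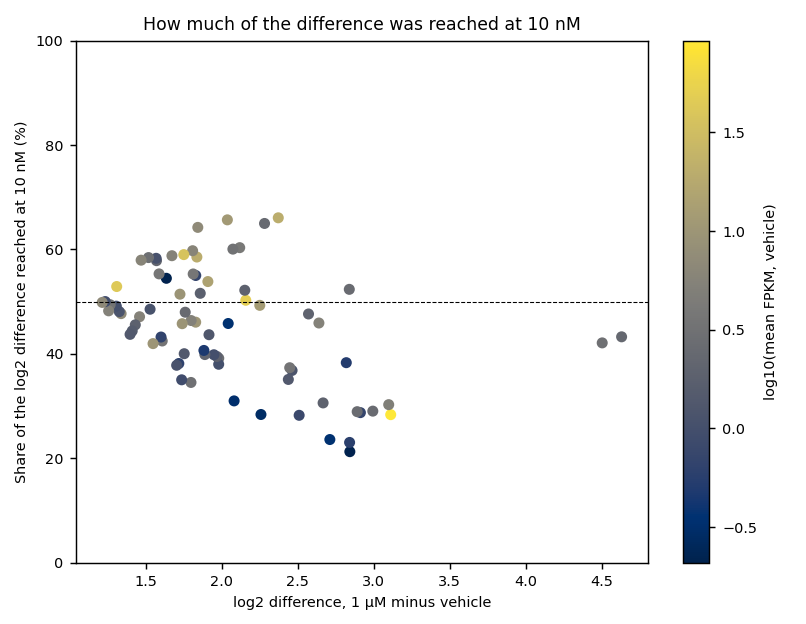
Share of the log2 difference that was reached at 10 nM (vertical axis, in percent) against the log2 difference of 1 µM minus vehicle (horizontal axis) for the 78 gene models, coloured by log10 of the mean FPKM in vehicle. Shares lie between 21.2 and 66.1%, most gene models with a difference over 2.5 lie under the dashed line at 50%, and the lowest shares belong mostly to gene models of low vehicle level.

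At 10 nM the largest shares were those of Xelaev18018055m.g, Xelaev18034081m.g, Xelaev18026614m.g and Xelaev18016664m.g. Xelaev18018055m.g had 21.9, 22.3, 17.6, 20.6 and 17.9 FPKM in vehicle, 68.8, 76.4, 37.9, 67.0 and 56.8 FPKM at 10 nM, and 136, 119, 106, 84.2 and 95.3 FPKM at 1 µM. It reached 66.1% of its log2 difference at 10 nM, where replicate 3 was by far the lowest library. Xelaev18034081m.g had 9.25, 7.95, 16.3, 11.98 and 10.4 FPKM in vehicle, 25.0, 30.2, 31.6, 31.9 and 30.2 FPKM at 10 nM, and 49.5, 58.6, 50.9, 41.6 and 44.4 FPKM at 1 µM. Its libraries at 10 nM lay close together but for replicate 1, and its share was 65.7%. Xelaev18026614m.g had 2.63, 2.90, 1.86, 1.68 and 3.05 FPKM in vehicle, 8.61, 8.16, 9.00, 9.63 and 7.44 FPKM at 10 nM, and 15.5, 17.9, 12.8, 12.2 and 19.9 FPKM at 1 µM. It was 3.54-fold higher at 10 nM than in vehicle and 1.83-fold higher at 1 µM than at 10 nM, a share of 65.0%. Xelaev18016664m.g averaged 6.96 ± 2.90 FPKM in vehicle, 17.1 ± 3.55 FPKM at 10 nM and 27.6 ± 4.51 FPKM at 1 µM (SD, n = 5 each), but on 4 to 14 reads per library in vehicle, 10 to 23 at 10 nM and 28 to 71 at 1 µM.

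The smallest shares at 10 nM were those of Xelaev18018671m.g, Xelaev18021869m.g, Xelaev18006797m.g and Xelaev18034791m.g. Xelaev18021869m.g had 0.523, 0.597, 0.688, 0.929 and 0.224 FPKM in vehicle, 2.24, 1.26, 1.76, 1.00 and 1.26 FPKM at 10 nM, and 10.7, 9.86, 9.98, 10.8 and 10.6 FPKM at 1 µM. Its 1 µM libraries were nearly equal, while those at 10 nM differed widely and replicate 1 was highest among them. Xelaev18006797m.g had 0.198, 0.679, 0.189, 0.308 and 0.360 FPKM in vehicle, 1.18, 0.750, 1.03, 1.45 and 1.09 FPKM at 10 nM, and 9.34, 7.41, 8.53, 7.36 and 6.47 FPKM at 1 µM. The highest vehicle library, replicate 2, came close to the lowest at 10 nM, also replicate 2. Xelaev18034791m.g had 1.08, 0.924, 0.773, 0.505 and 0.709 FPKM in vehicle, 2.23, 1.96, 1.66, 2.28 and 1.55 FPKM at 10 nM, and 8.55, 8.83, 10.2, 9.41 and 9.21 FPKM at 1 µM. In these 3 the ratio of 1 µM to 10 nM was 6.92, 7.12 and 4.77, and the ratio of 10 nM to vehicle was 2.54, 3.16 and 2.43. All of them were under 1 FPKM in the mean of vehicle, where adding 1 before the logarithm shrinks the first step most.

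Spread was ranked by the median of the coefficients of variation (SD over mean) of the 3 groups. By this measure replicates agreed best in Xelaev18008363m.g and Xelaev18013332m.g. Xelaev18008363m.g had 5.48, 5.01, 5.61, 5.49 and 5.47 FPKM in vehicle, 14.4, 12.5, 14.4, 13.5 and 14.6 FPKM at 10 nM, and 40.4, 34.4, 40.4, 41.9 and 37.7 FPKM at 1 µM. It rested on 522 to 1521 reads per library in vehicle and 7481 to 13343 at 1 µM, and its means were 5.41 ± 0.231 FPKM in vehicle, 13.8 ± 0.876 FPKM at 10 nM and 38.9 ± 2.95 FPKM at 1 µM (SD, n = 5 each). Xelaev18013332m.g had 16.6, 15.2, 15.1, 13.2 and 13.4 FPKM in vehicle, 32.8, 30.3, 31.6, 29.9 and 30.4 FPKM at 10 nM, and 60.1, 55.4, 63.5, 57.2 and 53.5 FPKM at 1 µM. Both gene models were separated between every pair of groups by more than 1.5-fold even at their nearest libraries. By the same measure the spread was widest in Xelaev18028802m.g and Xelaev18027484m.g. Within single groups the order differed. In vehicle Xelaev18018671m.g had the largest coefficient of variation, 68.5%, and at 1 µM Xelaev18027484m.g had only 12.4%. Xelaev18028802m.g had 0, 0.350, 0.293, 0.409 and 0.525 FPKM in vehicle, 0.642, 1.27, 1.65, 0.706 and 1.01 FPKM at 10 nM, and 7.51, 4.04, 5.32, 2.45 and 3.51 FPKM at 1 µM. Its vehicle values rest on 0 to 4 reads and its 10 nM values on 3 to 6 reads, and it is listed at 0 in vehicle replicate 1. Xelaev18027484m.g had 0.0944, 0.378, 0.271, 0.378 and 0.323 FPKM in vehicle, 1.42, 1.30, 0.680, 1.23 and 0.417 FPKM at 10 nM, and 6.01, 4.66, 5.09, 4.47 and 5.61 FPKM at 1 µM. At 10 nM replicate 5 lay only just above the highest vehicle libraries. Over the 78 gene models the median coefficient of variation was 22.7% in vehicle, 18.2% at 10 nM and 15.2% at 1 µM. Over all expressed gene models it was 20.4%, 19.6% and 15.8%.

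Low read numbers were most frequent in vehicle, which the rule requires to be the lowest group. Mean relative depth was 0.535 in vehicle, 0.455 at 10 nM and 0.839 at 1 µM, and its part in the read numbers was not tested. In 16 of the 78 the vehicle mean was under 1 FPKM, and in 16 at least 1 vehicle library had under 10 reads. At 10 nM 3 gene models had a library with under 10 reads, and at 1 µM 0 did. A vehicle library was listed at 0 for 2 gene models, Xelaev18028802m.g and Xelaev18004511m.g. In 7 gene models at least 14 of 15 read numbers were even, and in 3 others at least 14 of 15 were divisible by 3. The unit found there may be part of a read, and their read numbers may be too large. Xelaev18034791m.g and Xelaev18044737m.g are among the 7, and Xelaev18025121m.g is among the 3. The length relative to the median expressed gene model, from the same steps, had a median of 0.835 over 74 gene models, against 1 over all.

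Some libraries were often the highest or the lowest of their group. At 1 µM replicate 1 was the highest library for 28 of the 78 and replicate 4 the lowest for 34. At 10 nM replicate 2 was highest for 22 and replicate 5 lowest for 22, and in vehicle replicate 1 was highest for 25 and replicate 3 lowest for 24. Within each group the share of the most abundant gene model was lowest in replicate 1. That share was highest in vehicle replicate 3, 10 nM replicate 5 and 1 µM replicate 4. At 10 nM replicate 1, with a share of 17.6%, was highest for 20 of the 78, fewer than replicate 2 with 19.9%. Whether the share of that gene model accounts for the order of the libraries was not tested.

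Near the thresholds the choice is narrow. The gene models just inside were Xelaev18018671m.g, with steps of 0.60 and 2.24, Xelaev18017637m.g, with steps of 0.61 and 0.61, and Xelaev18020539m.g, with steps of 0.61 and 0.65. Xelaev18017637m.g averaged 6.87 ± 0.935 FPKM in vehicle, 10.97 ± 1.14 FPKM at 10 nM and 17.3 ± 1.24 FPKM at 1 µM (SD, n = 5 each), and Xelaev18020539m.g averaged 5.34 ± 1.37 FPKM in vehicle, 8.65 ± 1.56 FPKM at 10 nM and 14.2 ± 2.07 FPKM at 1 µM. Just outside were Xelaev18006949m.g, Xelaev18024849m.g and Xelaev18006113m.g, with smallest steps of 0.597, 0.589 and 0.588 and all other conditions met. Xelaev18006949m.g averaged 35.9 ± 2.50 FPKM in vehicle, 68.0 ± 8.64 FPKM at 10 nM and 103 ± 11.8 FPKM at 1 µM (SD, n = 5 each). Its identifier is 2 below that of Xelaev18006951m.g, the most abundant of the 78. Xelaev18024849m.g averaged 1.90 ± 0.217 FPKM in vehicle, 3.36 ± 0.420 FPKM at 10 nM and 9.61 ± 0.778 FPKM at 1 µM, and Xelaev18006113m.g averaged 2.11 ± 0.399 FPKM in vehicle, 3.67 ± 0.503 FPKM at 10 nM and 16.2 ± 0.988 FPKM at 1 µM. Between the nearest libraries of neighbouring groups the gap was under 1.1-fold at the first step in 13 gene models and at the second in 11, and at least 1.5-fold in 25 and 34.

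Among the 401 expressed gene models with a symbol, all of them in that early stretch of the table, 1 met the same conditions: p4hb, which encodes a protein disulfide isomerase of the endoplasmic reticulum that also serves as a subunit of prolyl 4-hydroxylase. It averaged 6.36 ± 0.778 FPKM in vehicle, 12.9 ± 2.29 FPKM at 10 nM and 21.9 ± 5.47 FPKM at 1 µM (SD, n = 5 each), with steps of 0.92 and 0.72. Among the 314 expressed gene models whose symbol is not a placeholder, its steps were also the second nearest to the median steps of the 78. The nearest were those of ubl4a, a member of the ubiquitin-like family, at 3.64 ± 2.77 FPKM in vehicle, 6.06 ± 3.03 FPKM at 10 nM and 12.1 ± 8.33 FPKM at 1 µM, but its libraries overlapped between all groups and held 0 to 30 reads. Next came stard8-like at 1.27 ± 0.374 FPKM in vehicle, 2.74 ± 0.737 FPKM at 10 nM and 7.51 ± 1.02 FPKM at 1 µM, ak3, a mitochondrial adenylate kinase, at 0.374 ± 0.294 FPKM in vehicle, 1.04 ± 0.544 FPKM at 10 nM and 2.71 ± 0.346 FPKM at 1 µM, and akr1c2, an aldo-keto reductase, at 1.53 ± 0.653 FPKM in vehicle, 2.71 ± 0.262 FPKM at 10 nM and 5.93 ± 1.66 FPKM at 1 µM. In these 3 the 1 µM libraries lay above those at 10 nM, and the 10 nM libraries overlapped vehicle. The likeness is in 2 steps over 15 libraries that share their groups, and nothing is read from it about function.

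Few genes of the retinoic acid pathway can be set beside the 78, because symbols stand only in the early stretch of the table. A gene not found by its symbol may be any of the unnamed gene models. Of 19 symbols for synthesis and removal of retinoic acid 1 was found, of 18 for receptors and cofactors 1, and of 25 for hox and axial target genes 0. The gene found for synthesis, rdh10, a retinol dehydrogenase, was lower with dose, unlike the 78. It averaged 22.9 ± 3.48 FPKM in vehicle, 13.97 ± 2.13 FPKM at 10 nM and 5.36 ± 0.336 FPKM at 1 µM (SD, n = 5 each), lower at both steps by limma. Its log2 difference was -0.67 for 10 nM against vehicle (limma adjusted p = 0.000949) and -1.23 for 1 µM against 10 nM (limma adjusted p = 1.01e-06). The orphan receptor gene nr2f6 averaged 2.45 ± 0.584 FPKM in vehicle, 2.54 ± 0.463 FPKM at 10 nM and 4.14 ± 0.302 FPKM at 1 µM. Its level at 1 µM exceeded that at 10 nM (log2 difference 0.55, limma adjusted p = 0.00227). For 10 nM against vehicle its log2 difference was 0.04 (limma adjusted p = 0.826). The p-values of both genes rest on the spread between aliquots, so they do not separate dose from dish.

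The embryos were sampled whole, so less or more RNA per cell and fewer or more cells of a type cannot be told apart for any of the 78. Of the marker lists, neural plate, neural crest, muscle and epidermis each had 1 gene with a symbol, and notochord, endoderm and blood had 0, again within that stretch. The neural plate gene sox2 averaged 3.30 ± 0.934 FPKM in vehicle, 0.927 ± 0.822 FPKM at 10 nM and 1.66 ± 0.610 FPKM at 1 µM. The neural crest gene sox9 averaged 2.70 ± 0.396, 2.09 ± 0.631 and 5.86 ± 0.753 FPKM in the same order of dose. The muscle gene chrnd, an acetylcholine receptor subunit, averaged 7.81 ± 1.81, 6.87 ± 0.422 and 3.30 ± 0.705 FPKM, and the epidermal gene grhl3 averaged 18.9 ± 1.35, 23.7 ± 0.956 and 15.1 ± 1.12 FPKM in that order (SD, n = 5 each). None of the 4 had a higher mean at each step, and the part of tissue makeup in the levels of the 78 was not tested.

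The choice also depends on how the values are treated. A pseudocount of 0.1 in place of 1 gave 133 gene models, all 78 among them, and a pseudocount of 5 gave 21, all of them from the 78. When each library was left out in turn, 69 to 77 of the 78 still met the rule and 1 to 21 others joined. Leaving out a library can only loosen the overlap condition, so one of the 78 is lost here only by a step under 0.6. In all, 50 gene models met the rule whichever library was left out. A smaller group of 12 met it under each of 9 other treatments of the values and under every left-out library, and it held Xelaev18034594m.g, Xelaev18036884m.g, Xelaev18027098m.g, Xelaev18008363m.g, Xelaev18031777m.g, Xelaev18018055m.g, Xelaev18026614m.g and Xelaev18013332m.g, described above, with Xelaev18016816m.g, Xelaev18022485m.g, Xelaev18044364m.g and Xelaev18044737m.g. Xelaev18016816m.g averaged 2.60 ± 0.784 FPKM in vehicle, 9.08 ± 2.63 FPKM at 10 nM and 24.7 ± 6.69 FPKM at 1 µM (SD, n = 5 each). Xelaev18022485m.g averaged 11.7 ± 1.85 FPKM in vehicle, 26.5 ± 3.57 FPKM at 10 nM and 59.6 ± 16.3 FPKM at 1 µM. Xelaev18044364m.g averaged 9.61 ± 1.40 FPKM in vehicle, 18.6 ± 2.31 FPKM at 10 nM and 34.1 ± 2.38 FPKM at 1 µM, and Xelaev18044737m.g averaged 3.16 ± 0.260 FPKM in vehicle, 8.86 ± 1.57 FPKM at 10 nM and 16.5 ± 1.02 FPKM at 1 µM. These 4 came to be named after their values were seen. Among the 9 treatments were a minimum mean of 5 FPKM, which 50 of the 78 reached, and the pseudocount of 5. Both favour gene models of higher level, so the 12 were chosen in part by their level. The pseudocount of 0.1 and the removal of the filter were also among the 9. Neither could lose any of the 78, so nothing is read from passing them. One of the 9 treatments thinned the reads, which 4 of the 78 without whole reads could not enter. Xelaev18029648m.g, 1 of these 4, met the rule in the other 8 treatments and under every left-out library. Xelaev18006951m.g, Xelaev18038699m.g and Xelaev18038705m.g, with some of the largest differences, were not among the 12, and Xelaev18006951m.g is also 1 of those 4.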

How the data were processed

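RNA from 15 libraries of whole embryos (100 ng per library, amplified with the Nugen Ovation system) was read with the SOLiD 5500xl platform in single 50-nt reads that keep no strand, per the labels' protocols. Genes on opposite strands therefore cannot be told apart where they overlap, and near-identical copies can share such short reads. The authors deposited 1 table of FPKM values. TopHat, Bowtie and Cufflinks are the tools in the submitters' processing notes. Their versions and the build and annotation behind the table are not given in the sources consulted.

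The members, the gene lists and the rule for named gene models were chosen with earlier results of these data known. Members were found from the deposited FPKM values in Python 3.11.15 (pandas 2.3.3, numpy 2.4.6), and matplotlib 3.10.9 drew the plots. Named are the 8 largest differences, the 4 highest means, and the 4 largest and 4 smallest shares at 10 nM. The 2 lowest and 2 highest spreads and the 3 gene models on each side of the threshold are named too. So are the nearest gene models with a symbol that is not a placeholder, and the listed retinoic acid genes. For the background, log2(FPKM + 1) of the 13192 expressed gene models (mean FPKM of 1 or more) went into limma 3.58.1 (R 4.3.3), with all groups together, a mean-variance trend, two-sided tests and Benjamini-Hochberg adjustment at 0.05. The fit was tested on simulated data. It takes the libraries of a group as independent, although no second dish per group is described. A fold change on that scale understates the change of low genes.

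Relative depth and read numbers came from the steps of the values within a gene model. Every value was a whole number of reads to 0.03 reads for 99.2% of the 34147 gene models above 0 in 2 or more libraries and for 98.2% of the expressed ones. Where few libraries were above 0 such a unit can be found for almost any values, so nothing is read from the 99.2%. Recovered reads in expressed gene models totalled 2584896 to 10590559 per library. Of 30 pairs of libraries within groups 0 were identical, and their reads differed beyond sampling noise, with chi-square at 5.89 to 20.8 per degree of freedom. Alternatives were other pseudocounts, filters, scalings, step thresholds, thinning to equal depth, leaving out libraries, voom on the recovered reads and the replicate number as a block.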

Additional observations from a re-analysis of the deposited data

Results flagged for a closer look

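A library stood apart from the other 4 of its group, by Dixon's test at 95%, in 3 of the 72 groups formed by the 24 named members and the 3 doses. Chance flags about 1 in 20 groups. In Xelaev18008363m.g vehicle replicate 2 was low at 5.01 FPKM, with a gap of 0.767 of the group's range. In Xelaev18034081m.g replicate 1 at 10 nM was low at 25.0 FPKM, with a gap of 0.746 of the range. In Xelaev18017637m.g vehicle replicate 1 was high at 8.51 FPKM, with a gap of 0.788 of the range.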

How the results depend on the processing

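The rule was met by 78 gene models as described, by 133 with a pseudocount of 0.1 and 21 with 5, by 50 with a mean of at least 5 FPKM, by 43 after scaling to a common total and by 128 without the 5 shallow libraries. It was met by 146, 31 and 9 with step thresholds of 0.4, 0.8 and 1, by 158 without the overlap condition, and by 74 to 91 when 1 library was left out. It was met by 66 after median-of-ratios scaling, by 62 after quantile normalization, by 61 with thinned reads (4 of the 78 have none), by 61 with group medians and by 78 with no filter. The median first step of the 78 was 1.10 with a pseudocount of 0.1 and 0.44 with 5, and the median second step was 0.66 with 5. The median difference of 1 µM minus vehicle was 2.29 and 1.23 with these pseudocounts, 1.74 and 1.71 after median-of-ratios and quantile scaling and 1.66 with the common total, which moved the median of all gene models at 10 nM against vehicle to -0.11. Leaving out 1 library gave 0.81 to 0.87, 0.91 to 1.00 and 1.83 to 1.93 for the 3 medians. Leaving out the 5 shallow libraries also loosens the overlap condition, so the 128 is not read as an effect of depth. The causes were not tested.

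Calls over all gene models numbered 3074 for 10 nM against vehicle, 6009 for 1 µM against vehicle and 3136 for 1 µM against 10 nM. They numbered 1560, 2250 and 1047 with a mean of at least 5 FPKM, where 4007 gene models were tested, and 2506 to 3097, 5375 to 6031 and 2572 to 3299 with 1 library left out. Without the shallow libraries, 3 of them vehicle and 2 of them 10 nM, 673 of 13192 gene models were called at 10 nM against vehicle. Fewer libraries then remain in both groups, so the smaller number of calls is not read as an effect of depth. Of the 673 calls 477 were higher. They held 52 of the 78, which were chosen on the same values, so nothing is read from it. With the replicate number as a block the calls numbered 2933, 5966 and 3051. Same-numbered libraries deviated from their group means with correlations of -0.11 to 0.11 over 15 pairs, so the numbers are not taken to pair the libraries. Of 1698 values of named gene models under the alternatives 0 changed sign and 77 moved by more than the spread between replicates, 64 of them under another pseudocount. The rule keeps the groups of each gene model apart, so only the scalings and the thinning could change a sign. Nothing is read from the 0. Few reads limit the vehicle values of the 16 gene models with under 10 reads in a library.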
